A study of Mus musculus with 2 samples.

Results

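Mab21l3 and Itgb8 positive migratory dendritic cells (DCs) were taken as the 180 cells of hashtags 2, 4 and 5 that passed a rule on raw counts of unique molecular identifiers (UMIs). They are 180 of the 4977 filtered cells of these hashtags, and of the 15480 filtered cells of the series. A cell belonged to the migratory pool when it held at least 3 UMIs of Fscn1, at least 3 of Ccr7 and at most 1 of Prdm16. Within that pool of 510 cells, the positive cells held 2 or more UMIs of Mab21l3 and Itgb8 together. The negative cells, against which they were compared, held 0 UMIs of both (290 cells), and the 40 cells with 1 UMI were left out of both sides. The members were chosen by the measured UMIs of these 5 genes, so their values are a description and carry no test.

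The study profiled DCs from mesenteric lymph nodes and small-intestinal lamina propria of 15-day-old, untreated mice, sorted for CD11c and MHC-II in the absence of CD3 and B220. All mice carried the Gm38411-iCre-hCD2 reporter, and the series asks about RORgt-positive DCs and their part in regulatory T cell induction by oral antigens. A pool of 6 biological replicates, 3 per tissue, was sequenced as a gene expression library with a hashtag library from the same droplets. The labels do not say which hashtag antibody marked which tissue, nor how many mice make a replicate, so no tissue was given to a hashtag and both sides were compared within a hashtag. Positive and negative cells therefore share genotype, age and treatment, and each hashtag gives 1 pair.

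Migratory DCs are DCs that have matured in a tissue, express the chemokine receptor Ccr7 and the actin-bundling protein fascin (Fscn1), and travel in lymph to the draining node. Itgb8 encodes the beta8 chain of the integrin alphavbeta8, which releases active TGF-beta from its latent complex. In mice, this integrin on intestinal DCs is known for its part in the induction of regulatory T cells. Mab21l3 is a member of the Mab-21 family of nucleotidyltransferase-fold proteins. In mm10, Mab21l3 lies on chromosome 3 (101813076 to 101848959, minus strand) and Itgb8 on chromosome 12 (119158022 to 119238802, minus strand).

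Hashtags 2, 4 and 5 held 42, 64 and 74 positive cells, against 77, 102 and 111 negative cells. Positive cells were 33.3% of the migratory pool in hashtag 2 (95% Wilson interval 25.7% to 42.0%), 35.4% in hashtag 4 (28.8% to 42.6%) and 36.5% in hashtag 5 (30.1% to 43.3%). The 3 intervals overlapped. The sum of Mab21l3 and Itgb8 ran from 2 to 49 UMIs per positive cell with a median of 5. At the edge of the rule, 45 cells held exactly 2 UMIs and 40 held 1, with median totals of 8138 and 12642.5 UMIs per cell. Pooled cells with at least 4000 UMIs (121, 176 and 194 of 126, 181 and 203 cells) were also thinned to 4000 UMIs. The positive share among them was then 20.7%, 22.7% and 22.2% in hashtags 2, 4 and 5, so the share depends on depth.

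Both genes contributed to the choice. Of the positive cells, 77 held both transcripts, 67 held Mab21l3 only and 36 held Itgb8 only. In the pool as a whole, Itgb8 was found in 45.3% of cells with Mab21l3 and in 14.7% of the other cells. The same order was seen in each hashtag, with 41.0%, 39.7% and 52.9% of Mab21l3-containing cells in hashtags 2, 4 and 5, against 11.5%, 13.6% and 17.8% of the others. Summed over the positive cells, Mab21l3 had 447, 300 and 345 counts per 1e6 UMIs (CPM, the gene's share of all gene UMIs of the summed cells) in hashtags 2, 4 and 5, and Itgb8 had 281, 336 and 436 CPM. Over the 3 hashtags there were 740 UMIs of Mab21l3 and 772 of Itgb8 in positive cells, against 0 of each in negative cells by the rule. The genes that defined the pool were not equal on both sides: Fscn1 had 2503, 2380 and 1926 CPM in positive cells, against 1363, 1652 and 1368 CPM in negative cells. Ccr7 had 708, 601 and 646 CPM in positive cells, against 524, 538 and 554 CPM in negative cells.

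**Figure D1:**
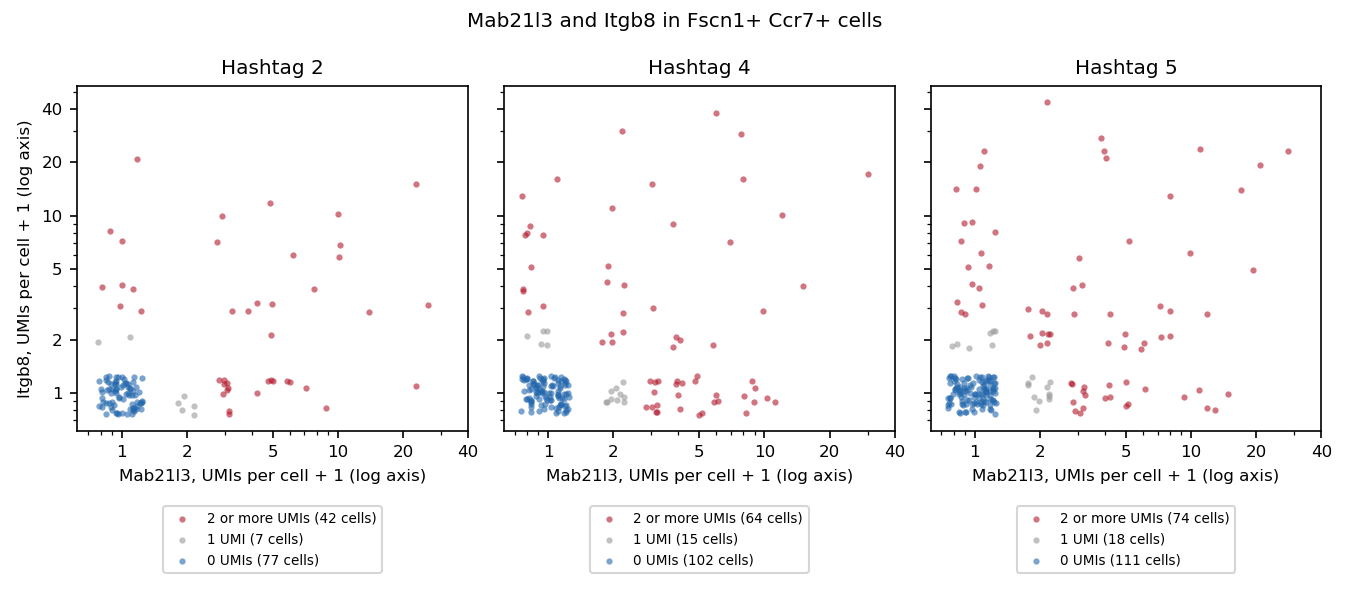
Each point is a cell of the migratory pool, placed by its UMIs of Mab21l3 (horizontal) and Itgb8 (vertical), both plus 1 on log axes with a small random shift, in hashtags 2, 4 and 5. Red cells hold 2 or more UMIs of both genes together (42, 64 and 74 cells), grey cells hold 1 and blue cells 0, and the red cells spread along both axes with 77 of 180 off both.

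Both transcripts were rare in non-migratory conventional DCs outside the pool. Among non-migratory cells, those with 0 UMIs of Ccr7, Fscn1 and Prdm16, Xcr1-positive cells (at least 2 UMIs of Xcr1 and none of Sirpa) held Mab21l3 at 12.9, 8.67 and 9.27 CPM in hashtags 2, 4 and 5. The Itgb8 count was 0 UMIs in these 110, 121 and 133 cells. Sirpa-positive non-migratory cells (at least 2 UMIs of Sirpa and none of Xcr1 or Clec9a) held 0.52, 1.5 and 0.545 CPM of Mab21l3. Their Itgb8 level was 0.52, 0 and 1.09 CPM in 257, 283 and 220 cells, a background level close to 0.

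Genes of matured DCs that the rule did not use were also present in the positive cells. Relb, an NF-kB subunit used in DC maturation, had 1070, 1059 and 1094 CPM in positive cells, and at most 64.7 CPM in non-migratory Xcr1-positive cells and 246 CPM in Sirpa-positive ones. Socs2, a feedback regulator of cytokine signalling, had 513, 615 and 571 CPM in positive cells and at most 11.4 CPM in either kind of non-migratory cell. The DC genes Zbtb46 and Flt3, a transcription factor and a growth factor receptor of conventional DCs, were present in positive cells at 263, 235 and 260 CPM and at 471, 394 and 515 CPM. Neither differed between the sides past the threshold (log2 fold change of positive over negative cells -0.04 ± 0.14 and 0.17 ± 0.13, SE, edgeR adjusted p = 0.897 and 0.447).

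Depth was close on both sides. The summed libraries held 452229, 800431 and 862863 UMIs in positive cells, against 825871, 1142131 and 1359041 UMIs in negative cells. Median UMIs per cell were 8383.5, 13142.5 and 12804 in positive cells, against 11090, 10639.5 and 11794 in negative cells, so the positive cells were shallower in hashtag 2 only. Marker transcripts of most other cell types were lower on the positive side. Summed over 13 T or NK cell markers the level was 15.1 to 17.7 CPM in positive cells, against 21.9 to 71.4 CPM in negative cells, with Cd3e, Cd3g, Nkg7, Klrb1c, Gzma and Ncr1 at 0 in positive cells. Over 10 B cell markers it was 24.99 to 41.7 CPM in positive cells, against 49.6 to 98.6 CPM in negative cells, with Cd79a, Cd79b and Iglc2 at 0 in positive cells. Over 12 macrophage markers it was 64.1 to 86.9 CPM in positive cells, against 101 to 187 CPM in negative cells, with Trem2 and Cd163 at 0 on both sides. Over 12 markers of ILC3, an innate lymphocyte, it was 97.3 to 117 CPM in positive cells, against 152 to 224 CPM in negative cells, with Il22, Il17a and Il17f at 0 on both sides. Most of this ILC3 sum was Tcf7 on both sides, with 41, 69 and 96 UMIs in positive cells and 173, 158 and 275 UMIs in negative cells. Tcf7 was found in 51.1% of positive and 64.5% of negative cells. Plasmacytoid DC markers went the other way, at 114 to 141 CPM in positive cells, against 84.6 to 107 CPM in negative cells, with Siglech, Ly6d, Klk1 and Cox6a2 at 0 on both sides. Monocyte or neutrophil, epithelial and stromal or endothelial markers each summed to at most 19.3 CPM on either side. The part of these markers in the differences below was not tested, but the count of called genes was repeated without the cells that held 3 or more UMIs over such markers.

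Across all genes the positive side differed in a broad set. Of 7083 genes tested, 502 were higher in positive cells (7.09%) and 391 were lower (5.52%), or 12.6% in all, by edgeR's quasi-likelihood test with hashtag as a block and a Benjamini-Hochberg adjusted p under 0.05. The 5 rule genes are not counted. The counts depend on the test and on the libraries: DESeq2 called 366 genes, all of them among the 893. Leaving out hashtag 2, 4 or 5 gave 325, 902 and 770 calls, so the smallest count came without hashtag 2. Without the cells holding other markers, 254 genes were called among 4494 tested, from fewer cells. There 748 of the 755 originally called genes tested kept their direction, but these cells are part of those that gave the calls. The p-values rest on how the difference between the sides varied over 3 hashtags, with information on spread shared across genes. CPM in the text are shares of summed UMIs, while fold changes come from the normalised fit.

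Among the 10 highest genes were several with broad detection. Zdhhc14, a palmitoyltransferase, had 924, 976 and 926 CPM in positive cells, against 116, 154 and 101 CPM in negative cells (log2 fold change 3.04 ± 0.14, SE, adjusted p = 8.29e-11). Laptm4b, a lysosomal membrane protein, had 367, 227 and 276 CPM in positive cells, against 24.2, 30.6 and 27.2 CPM in negative cells (3.44 ± 0.20, adjusted p = 1.40e-09). For both genes each positive value lay several-fold above each negative one. At 4000 UMIs per cell, Laptm4b was found in 50% of positive cells and 8.10% of negative cells, and in 68.9% and 15.9% without thinning. Bcl2l14, a Bcl-2 family member listed with DC maturation, had 288, 200 and 240 CPM in positive cells, against 41.2, 14.9 and 22.1 CPM in negative cells (3.39 ± 0.19, adjusted p = 1.40e-09). Aff3, a nuclear protein of the AF4 family, had 372, 280 and 285 CPM in positive cells, against 18.2, 22.8 and 46.4 CPM in negative cells (3.44 ± 0.23, adjusted p = 1.93e-08).

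Cpne8, a calcium-dependent phospholipid-binding copine, showed the largest fold change of the named genes, with 137, 70.0 and 54.5 CPM in positive cells, against 2.42, 7.0 and 1.47 CPM in negative cells (4.52 ± 0.37, adjusted p = 2.52e-07). Its 165 UMIs on the positive side came from 45 cells. Macc1 (3.55 ± 0.41), Mtss2 (3.51 ± 0.44), Arhgap8 (3.62 ± 0.55) and Colq (3.27 ± 0.40), the collagen tail of acetylcholinesterase, were also among the 10, at lower counts. In negative cells these genes held 11, 9, 7 and 17 UMIs, so they passed the filter on low counts through the positive side only. Mtss2 had 44.2, 22.5 and 27.8 CPM in positive cells, against 4.84, 2.63 and 1.47 CPM in negative cells. Macc1 was not spread over all positive cells. Of its 83 UMIs there, 65 lay in cells with both rule transcripts, 14 in cells with Itgb8 only and 4 in cells with Mab21l3 only. Macc1 lies near Itgb8 on chromosome 12 (119314270 to 119469987, plus strand), and a link between the 2 genes was not tested. Grid1, a glutamate receptor subunit, rested on few cells. Its 158 UMIs lay in 9 positive cells, 1 of which held 47.5% of them, and its level was 170, 95 and 5.79 CPM in positive cells, against 1.21, 14 and 0.736 CPM in negative cells.

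The 10 lowest genes also divide by how many cells held them. Spns3, a member of the spinster family of lipid transporters, had 17.7, 11.2 and 8.11 CPM in positive cells, against 92.0, 65.7 and 100 CPM in negative cells (-2.78 ± 0.28, adjusted p = 3.53e-06). It was found in 9.44% of positive and 45.5% of negative cells. Dkk2, a secreted Wnt antagonist, had 13.3, 47.5 and 188 CPM in positive cells, against 504, 475 and 504 CPM in negative cells (-2.58 ± 0.33, adjusted p = 3.44e-05). A single cell of hashtag 5 held 45.6% of the Dkk2 UMIs of the positive side. The synaptic vesicle gene Syt1 had the lowest fold change (-4.26 ± 0.44, adjusted p = 3.53e-06), with 2.21, 0 and 5.79 CPM in positive cells and 130, 23.6 and 58.9 CPM in negative cells. In negative cells its 214 UMIs lay in 15 of 290 cells. Ets1, a lymphoid transcription factor, had 2.21, 2.50 and 1.16 CPM in positive cells, against 25.4, 12.3 and 23.6 CPM in negative cells (-3.19 ± 0.57, adjusted p = 0.000887). Syt1 and Ets1 held 6 and 4 UMIs in positive cells and passed the filter on low counts through the negative side only. A single negative cell held 26.9% of the Ets1 UMIs of that side. The long noncoding RNA genes Mir99ahg (-3.68 ± 0.57) and Gm32509 (-3.10 ± 0.43), with 2610528A11Rik, Gm49101, Grin2c and Prkar2b, complete the 10. Each of these held 4 to 7 UMIs in positive cells and passed the same filter through the negative side only. Prkar2b had an adjusted p of 0.13 without hashtag 2 and 0.064 without hashtag 5.

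**Figure D2:**
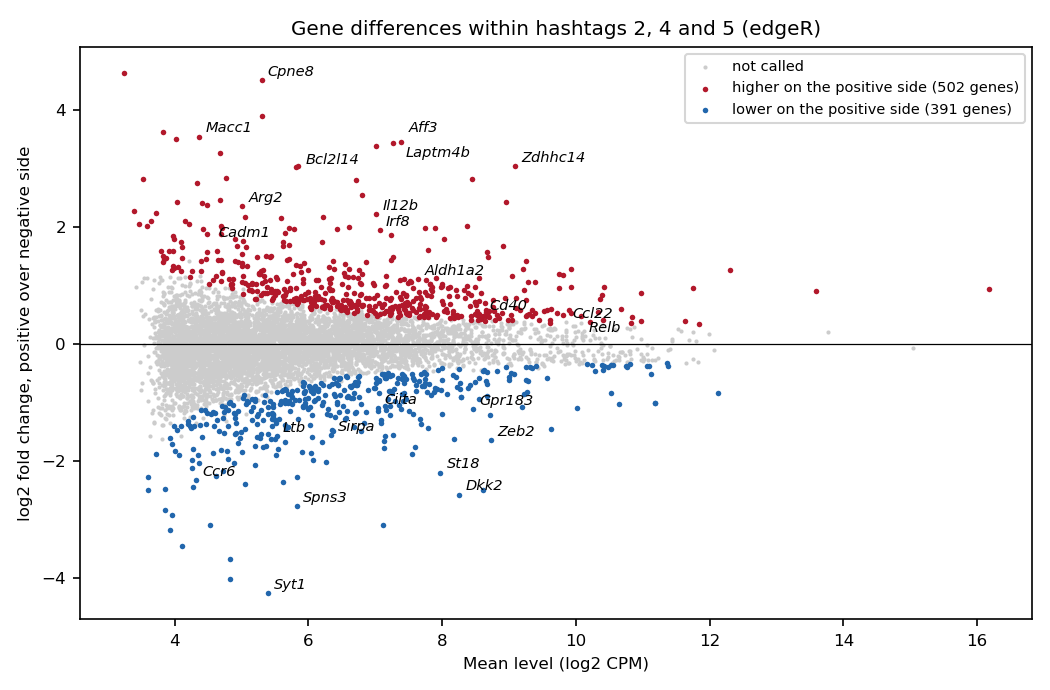
Each point is 1 of 7083 tested genes, with its mean level as log2 CPM (horizontal) and its fitted log2 fold change of positive over negative cells (vertical). Red points are the 502 genes called higher and blue points the 391 called lower, with Cpne8 and Syt1 at opposite ends of the named genes and Relb, Cd40 and Ccl22 among the grey points.

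Transcription factors of the DC lineages were split between the sides. Of 26 tested, 3 rose and 9 fell (background 7.09% and 5.52%), with a median log2 fold change of -0.19 beside -0.0134 over all genes. DESeq2 called 3 of them higher and 2 lower. Irf8, which is required for the Xcr1-positive type 1 conventional DC (cDC1), rose to 212, 215 and 203 CPM in positive cells, against 56.9, 67.4 and 50.8 CPM in negative cells (1.94 ± 0.16, adjusted p = 2.65e-07). Every positive value was at least 3 times any negative one. Zeb2, which represses the cDC1 fate in mice and is kept on in type 2 conventional DCs (cDC2), fell to 159, 195 and 205 CPM in positive cells, against 618, 609 and 657 CPM in negative cells (-1.65 ± 0.13, adjusted p = 1.28e-07). The calls of Irf8 and Zeb2 held in all 17 alternative settings, with fold changes of 1.66 to 2.16 and of -2.53 to -1.23.

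Further factors, named after their values were seen, went both ways. Rbpj, the nuclear effector of Notch, rose to 1187, 1252 and 1235 CPM in positive cells, against 592, 797 and 615 CPM in negative cells (0.98 ± 0.12, adjusted p = 1.96e-05). Irf1, an interferon-responsive factor, rose to 568, 451 and 533 CPM in positive cells, against 333, 355 and 300 CPM in negative cells (0.74 ± 0.13, adjusted p = 0.000832). Runx3 fell to 19.9, 28.7 and 31.3 CPM in positive cells, against 89.6, 53.4 and 61.1 CPM in negative cells (-1.14 ± 0.25, adjusted p = 0.00457). Spib, an Ets factor of plasmacytoid and B cells, fell by 1.15 on the log2 scale (SE 0.30, adjusted p = 0.0167), and its adjusted p was 0.13 without hashtag 2. Batf3, a partner of Irf8 in cDC1 development, did not follow Irf8: it had 212, 196 and 198 CPM in positive cells, against 306, 287 and 270 CPM in negative cells (-0.41 ± 0.13, adjusted p = 0.0493). Irf4, used by cDC2 and by migrating DCs, had 57.5, 47.5 and 46.4 CPM in positive cells, against 70.2, 93.7 and 86.1 CPM in negative cells (-0.67 ± 0.21, adjusted p = 0.0387). Its call was lost in 11 of 17 alternative settings, among them without hashtag 2, 4 or 5 (adjusted p = 0.0572, 0.214 and 0.184, with a range of 0.00104 to 0.57 over all settings).

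Surface and granule markers of the 2 conventional lineages were low on both sides and did not all point one way. Summed over 10 cDC1 markers the sides overlapped, at 187 to 254 CPM in positive cells and 180 to 234 CPM in negative cells. Over 12 cDC2 markers the sum was 71.2 to 119 CPM in positive cells, against 179 to 210 CPM in negative cells. Of the 10 cDC1 markers 5 were tested, of which 2 rose and 1 fell (background 7.09% higher and 5.52% lower). Cadm1, an adhesion molecule of cDC1, had 108, 56.2 and 78.8 CPM in positive cells, against 36.3, 19.3 and 16.2 CPM in negative cells (1.90 ± 0.23, adjusted p = 2.52e-05). Clec9a, the cDC1 receptor for dead cells, had 26.5, 18.7 and 17.4 CPM in positive cells, against 8.48, 9.63 and 7.36 CPM in negative cells (1.33 ± 0.39, adjusted p = 0.0297, but 0.187 without hashtag 2 and 0.0839 without hashtag 5). In non-migratory Xcr1-positive cells Cadm1 stood at 718 to 773 CPM, well above both migratory sides. Wdfy4, which cDC1 need for cross-presentation, fell to 68.5, 48.7 and 81.1 CPM in positive cells, against 121, 130 and 99.3 CPM in negative cells (-0.72 ± 0.21, adjusted p = 0.0273). The Wdfy4 call was lost in 8 of 17 settings, among them without hashtag 2 and without hashtag 4 (adjusted p = 0.18 and 0.31). Xcr1 itself passed no filter on low counts, with 12 CPM over all positive cells and 4.8 CPM over all negative cells. Of 12 cDC2 markers 2 were tested: Sirpa, an inhibitory receptor for Cd47, fell to 26.5, 31.2 and 45.2 CPM in positive cells, against 115, 103 and 115 CPM in negative cells (-1.56 ± 0.20, adjusted p = 4.71e-05), while Esam was not called (-0.54). St18, a zinc finger factor, fell to 31.0, 140 and 70.7 CPM in positive cells, against 378, 412 and 384 CPM in negative cells (-2.20 ± 0.22, adjusted p = 2.53e-06), and 1 cell of hashtag 4 held 35.8% of the St18 UMIs of the positive side.

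The called genes were also set beside the difference between non-migratory Xcr1-positive and Sirpa-positive cells of the same hashtags, a comparison that was chosen once values were known and that carries no test. These cells are not in the migratory pool, and Sirpa and Clec9a, which chose them, were left out. Of the 501 genes higher in positive cells, 218 (43.5%) were higher in Xcr1-positive than in Sirpa-positive cells in 3 of 3 hashtags, beside 24.8% of all 7081 genes, and 150 (29.9%) were lower, beside 43.1%. Of the 390 genes lower in positive cells, 55 (14.1%) were higher in Xcr1-positive cells in 3 of 3 hashtags and 283 (72.6%) were lower. The median log2 ratio of Xcr1-positive over Sirpa-positive cells was 0.0687 for the higher genes, -1.04 for the lower genes and -0.145 for all genes. Xcr1-positive cells were deeper, with medians of 10794 to 14100 UMIs, against 6333 to 7201.5 UMIs in Sirpa-positive cells. Irf8 stood at 1571 to 1615 CPM in Xcr1-positive cells and at 33.8 to 38.1 CPM in Sirpa-positive cells. Zdhhc14, Bcl2l14 and Arg2 were at most 58.0, 30.6 and 1.0 CPM in either kind of non-migratory cell, below their levels in positive cells.

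**Figure D3:**
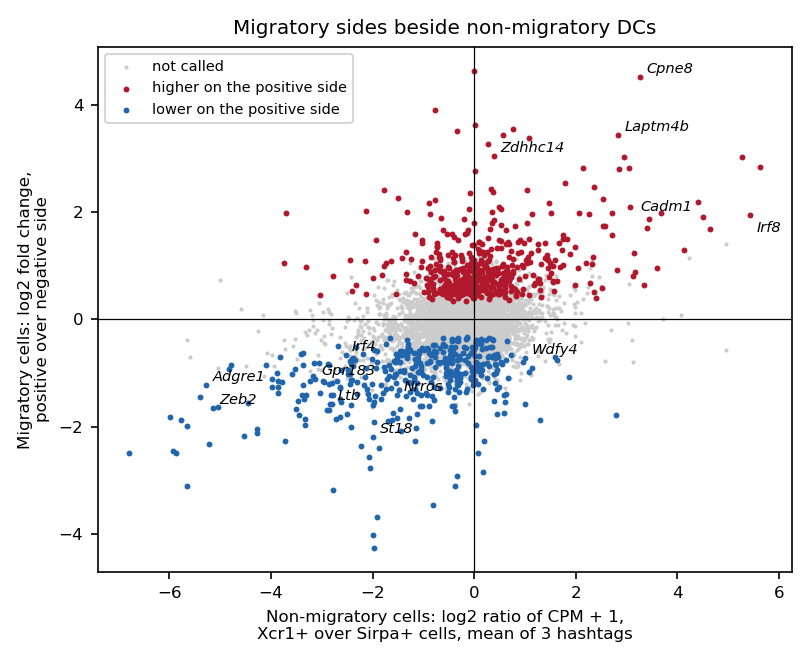
Each point is a tested gene, with the log2 ratio of CPM + 1 of Xcr1-positive over Sirpa-positive non-migratory cells (horizontal, mean of 3 hashtags) and the log2 fold change of positive over negative migratory cells (vertical). Blue genes, lower on the positive side, lie mostly left of 0 (72.6% lower in Xcr1-positive cells in 3 of 3 hashtags), and red genes lie on both sides with Irf8 and Cadm1 to the right and Zdhhc14 near 0.

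Of the genes for TGF-beta activation and response, 13 of 28 were tested, of which 3 rose and 2 fell (background 7.09% higher and 5.52% lower), with a median log2 fold change of 0.106, and DESeq2 called 1 in each direction. Itgav, the alpha chain that pairs with Itgb8, had 90.7, 41.2 and 81.1 CPM in positive cells, against 38.8, 42.0 and 46.4 CPM in negative cells (0.77 ± 0.24, adjusted p = 0.0408). Of its 41 UMIs in positive cells of hashtag 2, a single cell held 18. The values of hashtag 4 did not differ, and the call was lost in 10 of 17 settings, among them without hashtag 2 and without hashtag 5 (adjusted p = 0.35 and 0.14). Itgb1, another partner of Itgav, rose to 699, 717 and 686 CPM in positive cells, against 538, 522 and 513 CPM in negative cells (0.52 ± 0.11, adjusted p = 0.00428, named after its values were seen). The ligand Tgfb1 had 17.7, 35.0 and 34.8 CPM in positive cells and 47.2, 39.4 and 36.8 CPM in negative cells, and was not called (-0.32 ± 0.27, adjusted p = 0.508). The receptor Tgfbr1 was not called either (0.11 ± 0.19, adjusted p = 0.787). Nrros, which anchors latent TGF-beta on myeloid cells, fell to 17.7, 26.2 and 23.2 CPM in positive cells, against 83.5, 42.0 and 79.5 CPM in negative cells (-1.41 ± 0.27, adjusted p = 0.00157).

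TGF-beta response genes moved in opposite directions. Pmepa1, a target and feedback inhibitor of the pathway, had 31.0, 30.0 and 33.6 CPM in positive cells, against 14.5, 14.9 and 15.4 CPM in negative cells (1.16 ± 0.30, adjusted p = 0.016). Smad7, an inhibitory Smad that the pathway also induces, had 24.3, 30.0 and 39.4 CPM in positive cells, against 53.3, 58.7 and 61.1 CPM in negative cells (-0.77 ± 0.23, adjusted p = 0.0326). The sides did not overlap for either gene. Without hashtag 2 the log2 fold changes of Nrros, Pmepa1 and Smad7 were -1.20, 1.13 and -0.71 and none was called (adjusted p = 0.073, 0.11 and 0.17). Smad7 was also not called without hashtag 4 (adjusted p = 0.14), nor Pmepa1 without hashtag 5 (adjusted p = 0.074).

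Aldh1a2, the enzyme that makes retinoic acid in migratory gut DCs, rose to 272, 216 and 291 CPM in positive cells, against 90.8, 198 and 106 CPM in negative cells (1.10 ± 0.22, adjusted p = 0.00196). The difference was small in hashtag 4, and without hashtag 2 the log2 fold change was 0.86 with an adjusted p of 0.13. After thinning, 44.1% of positive cells and 34.2% of negative cells held Aldh1a2. It was 1 of 4 tested genes of the retinoic acid list of 19, and the other 3 were not called. Among 15 tested integrin and adhesion genes 1 rose and 4 fell (background 7.09% higher and 5.52% lower), and DESeq2 called 0 higher and 1 lower. Cd200, a ligand that restrains myeloid cells, had 144, 160 and 161 CPM in positive cells, against 120, 81.4 and 110 CPM in negative cells (0.70 ± 0.16, adjusted p = 0.00688, but 0.0756 without hashtag 4). Nrp2, a semaphorin coreceptor, had 59.7, 71.2 and 109 CPM in positive cells, against 229, 186 and 146 CPM in negative cells (-1.06 ± 0.21, adjusted p = 0.00207, but 0.11 without hashtag 2). Cd44, a hyaluronan receptor, had 343, 395 and 492 CPM in positive cells, against 697, 639 and 558 CPM in negative cells (-0.52 ± 0.14, adjusted p = 0.0189, but 0.256 without hashtag 2 and 0.0658 without hashtag 4).

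Of 26 tested maturation genes 7 rose and 3 fell (background 7.09% higher and 5.52% lower) and 16 were not called, with a median log2 fold change of 0.266. Il15ra, which presents interleukin 15 to lymphocytes, rose to 380, 297 and 312 CPM in positive cells, against 211, 173 and 138 CPM in negative cells (1.03 ± 0.14, adjusted p = 5.25e-05). Zmynd15, a zinc finger protein of matured DCs, rose to 475, 424 and 366 CPM in positive cells, against 240, 232 and 202 CPM in negative cells (1.0 ± 0.13, adjusted p = 3.43e-05). Of 24 tested genes of the NF-kB and TNF receptor family 2 rose, Nfkbib (0.72 ± 0.18) and Tnfrsf4 (0.62 ± 0.16), 1 fell, Bcl3 (-0.80 ± 0.21), and 21 were not called, while DESeq2 called 0. Without hashtag 2 none of these 3 was called (adjusted p = 0.17, 0.22 and 0.074), nor was Bcl3 without hashtag 5 (adjusted p = 0.21). Relb differed by 0.13 ± 0.11 (adjusted p = 0.492) and the RANK receptor Tnfrsf11a by -0.12 ± 0.14 (adjusted p = 0.649).

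Ligands that meet T cells were changed for some members. Of 14 tested costimulatory and coinhibitory genes 4 rose and 1 fell (background 7.09% higher and 5.52% lower), and DESeq2 called 2 higher and 0 lower. Pdcd1lg2, which encodes the PD-1 ligand PD-L2, rose to 119, 121 and 75.3 CPM in positive cells, against 53.3, 68.3 and 39.7 CPM in negative cells (1.05 ± 0.18, adjusted p = 0.000708). The Pdcd1lg2 call was lost in 3 of 17 settings (adjusted p at most 0.241). These were cells of like depth, Itgb8 at 2 or more UMIs, and the setting without cells holding other markers. The other PD-1 ligand, Cd274, had 352, 407 and 358 CPM in positive cells, against 473, 411 and 487 CPM in negative cells, and was not called (-0.19 ± 0.13, adjusted p = 0.373). Pvr, a ligand of the receptors CD226 and TIGIT, rose to 119, 120 and 141 CPM in positive cells, against 50.9, 81.4 and 53.0 CPM in negative cells (1.14 ± 0.19, adjusted p = 0.000554). Cd70, the ligand of CD27, had 35.4, 20 and 12.8 CPM in positive cells, against 4.84, 8.76 and 7.36 CPM in negative cells (1.59 ± 0.44, adjusted p = 0.0219). Its adjusted p was 0.25 without hashtag 2. Cd40 (0.30 ± 0.13, adjusted p = 0.134) was not called, with 345, 524 and 349 CPM in positive cells and 316, 397 and 331 CPM in negative cells. Cd86 was lower in 3 of 3 hashtags (-0.43 ± 0.13, adjusted p = 0.0359), but the call was lost in 11 of 17 settings, among them without hashtag 2, 4 or 5 (adjusted p = 0.19, 0.12 and 0.054).

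Of 9 tested cytokine genes 3 rose and 1 fell (background 7.09% higher and 5.52% lower), and DESeq2 called 0 higher and 1 lower. Il12b, the p40 subunit of interleukins 12 and 23, had 327, 202 and 122 CPM in positive cells, against 12.1, 19.3 and 117 CPM in negative cells (2.23 ± 0.48, adjusted p = 0.00404). The size differed between hashtags, and in hashtag 5 the levels were nearly equal, and without hashtag 2 the log2 fold change was 1.43 (adjusted p = 0.20). Its transcripts were concentrated: 51 of 180 positive cells and 17 of 290 negative cells held any. A single positive cell of hashtag 2 held 89 UMIs, 21.4% of the positive side, where that hashtag had 148 on this side. Among negative cells, 1 cell held 67 UMIs, 35.1% of that side. This cell lay in hashtag 5, which had 159 negative UMIs, since hashtags 2 and 4 had only 10 and 22. Single cells therefore weigh on the levels of hashtags 2 and 5. After thinning, 18.2% of positive cells held Il12b, against 3.52% of negative cells and 1.03% of Prdm16-positive cells. Csf1, the macrophage growth factor, had 48.6, 16.2 and 27.8 CPM in positive cells, against 9.69, 9.63 and 14 CPM in negative cells (1.42 ± 0.37, adjusted p = 0.0147, but 0.22 without hashtag 2). Il15 was the third (0.41 ± 0.13, adjusted p = 0.0402, named after its value was seen). Ltb, the membrane-bound lymphotoxin beta chain, fell to 19.9, 23.7 and 13.9 CPM in positive cells, against 56.9, 49.9 and 74.3 CPM in negative cells (-1.58 ± 0.28, adjusted p = 0.000856).

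No chemokine ligand was called among 11 tested, beside 12.6% of all genes called in either direction. At that share few calls would be expected among 11 genes. By edgeR, 2 were higher and 0 lower at an unadjusted p under 0.05, and DESeq2 called 0. Ccl17, a ligand of Ccr4, had 161, 441 and 320 CPM in positive cells, against 154, 527 and 225 CPM in negative cells (0.19 ± 0.15, adjusted p = 0.483). Ccl22, another Ccr4 ligand, had 690, 1066 and 1184 CPM in positive cells, against 788, 1052 and 603 CPM in negative cells (0.38 ± 0.16, adjusted p = 0.146).

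Of 9 tested migration and chemokine receptor genes 2 rose, 2 fell and 5 were not called (background 7.09% higher and 5.52% lower), and DESeq2 called 0 higher and 2 lower. S1pr1, which guides cells along sphingosine 1-phosphate, had 22.1, 12.5 and 13.9 CPM in positive cells, against 3.63, 3.50 and 2.94 CPM in negative cells (2.27 ± 0.51, adjusted p = 0.00531). Gpr183, the oxysterol receptor that positions cDC2 in lymphoid tissue, fell to 230, 159 and 231 CPM in positive cells, against 448, 495 and 474 CPM in negative cells (-1.12 ± 0.15, adjusted p = 5.84e-05). Ccr6, the receptor for Ccl20, had 2.21, 8.74 and 2.32 CPM in positive cells, against 33.9, 18.4 and 28.0 CPM in negative cells (-2.32 ± 0.49, adjusted p = 0.00338). For all 3 genes the sides did not overlap, but they were named as called genes that moved one way in 3 of 3 hashtags. Without hashtag 2, the adjusted p was 0.087 for S1pr1 and 0.096 for Ccr6.

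**Figure D4:**
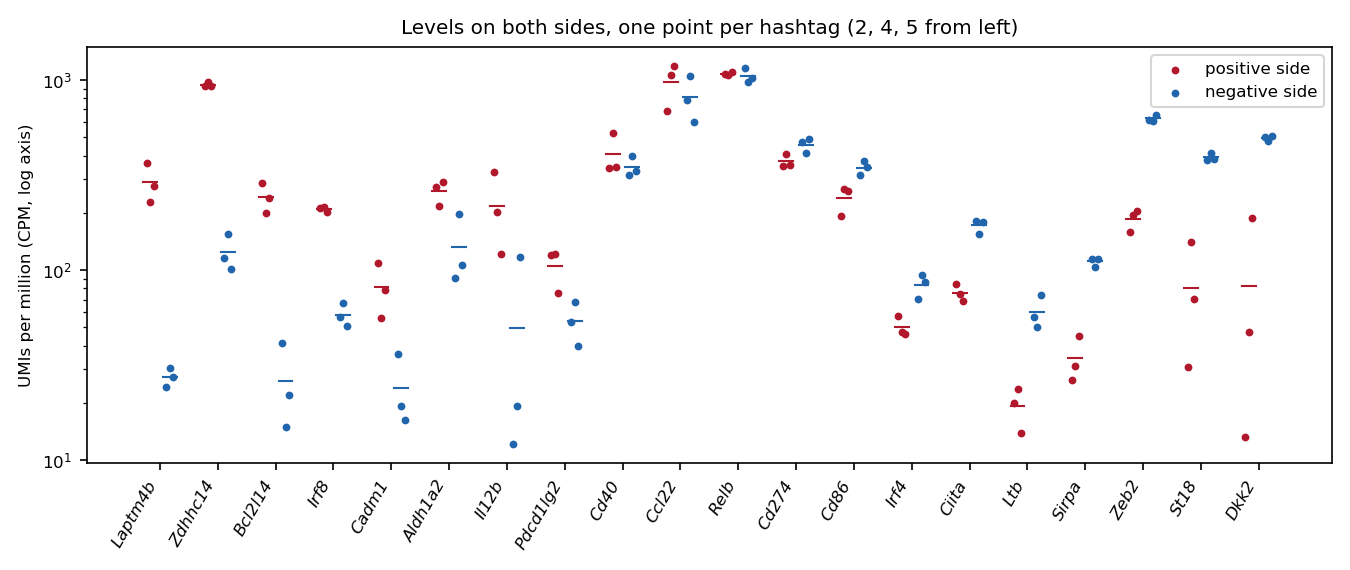
Levels in CPM (log axis) of 20 genes in positive cells (red, left) and negative cells (blue, right), with 1 point per hashtag in the order 2, 4, 5 and a bar at the mean of 3. Irf8, Zdhhc14 and Zeb2 show tight, separate groups, Relb, Cd40 and Ccl22 overlap, and Il12b in negative cells runs from 12.1 to 117 CPM.

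Class II genes were lower on the positive side, and most class I genes were not called. Of 16 tested class II genes 10 fell (background 5.52% lower), with a median log2 fold change of -0.85, and DESeq2 called 8 of them lower. Ciita, the master activator of class II genes, fell to 84.0, 75 and 68.4 CPM in positive cells, against 182, 155 and 179 CPM in negative cells (-1.09 ± 0.16, adjusted p = 0.00018). The peptide-loading genes H2-DMb2 (-1.20 ± 0.20, adjusted p = 0.000521) and H2-Oa (-1.25 ± 0.26, adjusted p = 0.0028) were lower in 3 of 3 hashtags, and H2-Oa had an adjusted p of 0.0593 without hashtag 2. The classical chains, named after their values were seen, were lower as well. H2-Aa had 1145, 1529 and 1684 CPM in positive cells, against 2835, 2918 and 3559 CPM in negative cells (-1.01 ± 0.11, adjusted p = 4.53e-06). H2-Ab1 had 414, 652 and 794 CPM in positive cells, against 1259, 1338 and 1572 CPM in negative cells (-1.09 ± 0.12, adjusted p = 8.64e-06). Cd74, the invariant chain, had 2213, 3082 and 3820 CPM in positive cells, against 5043, 5724 and 6405 CPM in negative cells (-0.84 ± 0.10, adjusted p = 2.79e-05). Class II surface protein was part of the sort, and these are transcript levels only.

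Of 15 class I genes 3 rose (background 7.09% higher) and 12 were not called, with a median of 0.155, and DESeq2 called 1. Nlrc5, the activator of class I genes, rose to 425, 425 and 420 CPM in positive cells, against 247, 262 and 316 CPM in negative cells (0.72 ± 0.13, adjusted p = 0.00103). Tap1, a peptide transporter chain, rose to 268, 195 and 176 CPM in positive cells, against 137, 137 and 144 CPM in negative cells (0.67 ± 0.16, adjusted p = 0.00839, but 0.16 without hashtag 2). H2-K1 was 0.35 ± 0.11 higher (adjusted p = 0.0492), a call lost in 11 of 17 settings, among them without the hashtag block and without hashtag 2 or 4 (adjusted p = 0.35 and 0.15).

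Most other lists held few calls, apart from the genes linked to Aire-expressing and RORgt-positive DCs. All these counts stand beside 7.09% of all tested genes called higher and 5.52% called lower. Arg2, a mitochondrial arginase and the gene that rose among 11 tested regulatory enzymes and receptors, had 48.6, 53.7 and 58.0 CPM in positive cells, against 12.1, 8.76 and 12.5 CPM in negative cells (2.36 ± 0.29, adjusted p = 2.17e-05). The nuclear receptor Nr4a3 fell there (-0.70 ± 0.14, adjusted p = 0.00257). Of 7 interferon-stimulated genes Oasl1 rose and Gbp2 fell. A single cell of hashtag 2 held 62.7% of the Oasl1 UMIs of the positive side, and without that hashtag the adjusted p was 0.15. Gbp2 had 66.3, 112 and 75.3 CPM in positive cells, against 128, 154 and 173 CPM in negative cells (-0.76 ± 0.18, adjusted p = 0.00677, but 0.0914 without hashtag 2 and 0.0891 without hashtag 5). Of 16 early stress genes, which mark handling of cells, 3 fell (background 5.52% lower): Jun (-0.69 ± 0.12), Hspa1a (-0.75 ± 0.14) and Hspa1b (-0.88 ± 0.15). Hspa1a had 133, 239 and 320 CPM in positive cells, against 317, 406 and 497 CPM in negative cells, and its part in the other differences was not tested. Of 7 cell cycle genes Pcna fell (-0.80 ± 0.22, adjusted p = 0.0234, but 0.182 without hashtag 2 and 0.0952 without hashtag 5). Of 7 Toll-like receptor and adaptor genes Unc93b1, a chaperone of endosomal receptors, fell (-0.64 ± 0.14, adjusted p = 0.00486, but 0.083 without hashtag 2). Of 7 tested genes linked to Aire-expressing and RORgt-positive DCs, 2 rose and 4 fell, with a median of -1.18. Macc1 and Il7r (0.45 ± 0.13) were the higher ones, and St18, Ccr6, Hdac9 (-1.77 ± 0.20) and Rora (-1.18 ± 0.34) the lower ones, of which Il7r, Hdac9 and Rora are named after their values were seen. Of 2 tested plasmacytoid DC markers Bst2 rose (0.83 ± 0.21, adjusted p = 0.0126, but not called without hashtag 2 or 5) and Spib fell. Marker genes of B cells, ILC3 and macrophages that were called fell: Ighm (-1.75 ± 0.30), Tcf7 (-0.80 ± 0.16) and Adgre1 (-1.22 ± 0.26). Without hashtag 2 Tcf7 and Adgre1 had adjusted p of 0.055 and 0.13.

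The positive cells were not uniform. Cells with Mab21l3 only, both transcripts or Itgb8 only numbered 67, 77 and 36, and their levels are given without a test because these transcripts divide them and hashtag 2 held few Itgb8-only cells. Irf8 stood at 349, 237 and 200 CPM in Mab21l3-only cells and 134, 248 and 256 CPM in cells with both, against 57.9, 80.9 and 92.7 CPM in Itgb8-only cells. The Itgb8-only values lay near the 56.9, 67.4 and 50.8 CPM of negative cells. Zdhhc14 had 1089, 822 and 849 CPM in Mab21l3-only cells and 953, 1417 and 1268 CPM in cells with both, against 391, 368 and 300 CPM in Itgb8-only cells. Pdcd1lg2 had 159, 184 and 114 CPM in Mab21l3-only cells, 113, 80.5 and 72.7 CPM in cells with both, and 28.9, 51.5 and 21.8 CPM in Itgb8-only cells. Those Itgb8-only values of Pdcd1lg2 lay below the negative cells in every hashtag. Itgb8-only cells were thus the lowest of the 3 kinds for these genes in every hashtag.

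Other genes followed the pair of transcripts. Aff3 had 727, 583 and 499 CPM in cells with both, against 79.3, 113 and 85.6 CPM in Mab21l3-only cells and 174, 22.1 and 125 CPM in Itgb8-only cells, so it was highest in cells with both. Laptm4b was above the negative cells in all kinds, at 376, 195 and 225 CPM in Mab21l3-only cells, 407, 290 and 396 CPM in cells with both and 232, 169 and 92.7 CPM in Itgb8-only cells. Zeb2 ran the other way, at 138, 220 and 289 CPM, 108, 87.0 and 115 CPM and 362, 375 and 273 CPM in the same order. Ccl17 differed between hashtags: cells with both had 201, 110 and 52.6 CPM, and Mab21l3-only cells 148, 599 and 699 CPM, so cells with both were lower in hashtags 4 and 5 and higher in hashtag 2. When cells with both transcripts alone formed the positive side, the fit gave a lower Ccl17 than in negative cells, whose levels were 154, 527 and 225 CPM, although in hashtag 2 the order was the other way (log2 fold change -1.29, adjusted p = 0.000127, where the range over settings is 0.000127 to 0.98).

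Cells with 1 UMI of either gene were few, with 7, 15 and 18 cells, and for Irf8 their summed levels lay nearer to the negative cells, at 28.7, 92.0 and 98.6 CPM. Zeb2 had 890, 368 and 413 CPM in these cells, between the 2 sides in hashtags 4 and 5 and above both in hashtag 2. Pdcd1lg2, at 187, 152 and 75.1 CPM, was instead at the level of the positive cells.

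**Figure D5:**
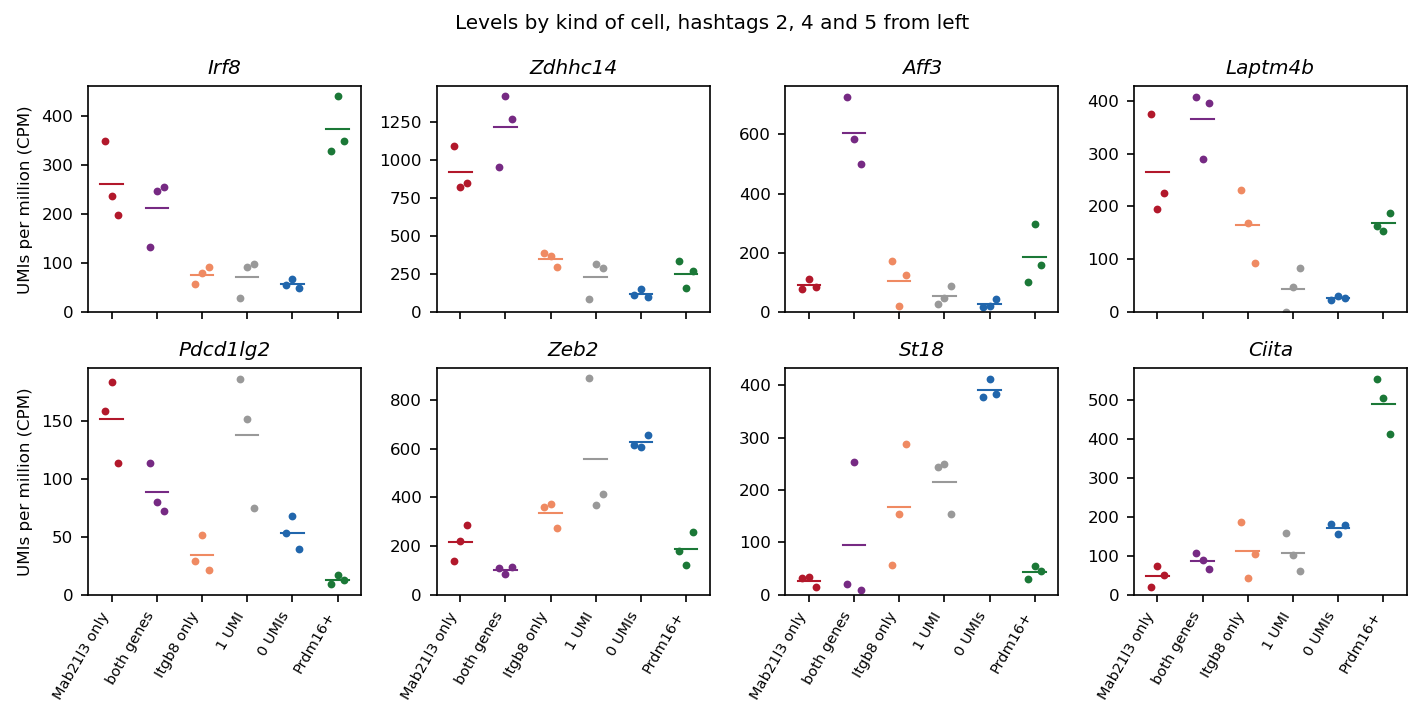
Levels in CPM of 8 genes in cells with Mab21l3 only, both transcripts, Itgb8 only, 1 UMI, 0 UMIs and in Prdm16-positive cells, with 1 point per hashtag in the order 2, 4, 5 and a bar at the mean. Irf8 and Zdhhc14 are high in Mab21l3-only cells and cells with both, and Aff3 is high in cells with both, whereas Zeb2 and St18 are higher in cells with 0 UMIs than in cells with both in each hashtag.

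Hashtags 6, 8 and 9 held few such cells. The rule found 4 positive cells among 56 pooled cells in hashtag 6 (7.14%, Wilson 2.81% to 16.98%), 4 of 67 in hashtag 9 (5.97%, 2.35% to 14.4%) and 0 of 14 in hashtag 8, which allows a share of up to 21.4%. With fewer than 10 positive cells in each, no fit was made there. Summed over these 4 cells, Zdhhc14 had 822 CPM in hashtag 6 and 607 CPM in hashtag 9, against 62.4 and 104 CPM in the negative cells. Laptm4b had 318 and 476 CPM in positive cells, against 9.30 and 37.8 CPM in negative cells. H2-Aa had 1907 and 2199 CPM in positive cells, against 5902 and 6118 CPM in negative cells. Irf8 was high in 1 of the 2 hashtags only, with 921 and 82.1 CPM in positive cells, against 108 and 75.5 CPM in negative cells. Cadm1 was lower in positive cells there (76.7 and 98.5 CPM, against 239 and 198 CPM). Of the 502 genes called higher, 276 (55.0%) were higher in positive cells of both hashtags and 74 (14.7%) lower, and of the 391 called lower, 278 (71.1%) were lower in both and 18 (4.6%) higher. Over all 7083 genes, 17.6% were higher in both and 43.8% lower. Sums of 4 cells leave many genes at 0.

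Itgb8 was also present in Prdm16-positive cells, those with 2 or more UMIs of the zinc finger transcription factor Prdm16. There were 34, 39 and 39 of them in hashtags 2, 4 and 5. Itgb8 stood at 281, 336 and 436 CPM in positive migratory cells, against 102, 199 and 324 CPM in Prdm16-positive cells. Mab21l3 had 740 UMIs in positive migratory cells, against 6 in Prdm16-positive cells. Of 5945 genes, 1160 were higher in positive migratory cells (19.5%) and 1166 lower (19.6%), or 39.1% in all. Transcripts of the reporter gene were found in the Prdm16-positive cells. Positive migratory cells held 0 UMIs of Gm38411 and 0 of hCD2, against 78 and 62 in Prdm16-positive cells, or at least 45.7-fold and 36.3-fold lower, with the limit of 3 counts set over the summed cells. tdTomato, an added sequence in the reference, had 22.1, 28.7 and 59.1 CPM in positive migratory cells, against 114, 122 and 155 CPM in Prdm16-positive cells (-1.60 ± 0.26, adjusted p = 3.67e-05). It did not differ from negative cells past the threshold (0.07 ± 0.27, adjusted p = 0.906).

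The positive migratory cells were chosen for at least 3 UMIs of Fscn1 and of Ccr7, and the Prdm16-positive cells were not. Fscn1 was found in 100% of positive migratory cells and 54.5% of Prdm16-positive cells, and Ccr7 in 100% and 58.9%. For maturation genes, this choice of cells and a difference between the 2 classes cannot be told apart, so they are given as a description. Of 25 maturation genes 23 were higher (background 19.5%), with a median log2 fold change of 1.55. Of 15 class I genes 14 were higher, of 23 NF-kB and TNF receptor genes 12 were higher and 1 lower, and of 9 chemokine ligands 5 were higher. Ccl22 had 690, 1066 and 1184 CPM in positive migratory cells, against 18.5, 300 and 216 CPM in Prdm16-positive cells. Of 16 class II genes 10 were lower (background 19.6%) and 2 higher: Ciita had 84.0, 75 and 68.4 CPM, against 554, 506 and 412 CPM in Prdm16-positive cells (-2.45 ± 0.19, adjusted p = 2.0e-09).

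Genes high or absent in only 1 of the 2 classes were given by their counts. Slamf1 (112 UMIs, against 0) and Insl6 (72, against 0) were at least 21.3-fold and 13.7-fold higher in positive migratory cells, and the metalloproteinase Mmp25 (270, against 1) was 154-fold higher (95% counting interval 27.4 to 6096). The fitted values of Il12b and AW112010, a transcript of matured and interferon-exposed cells, were 6.08 ± 0.38 and 6.03 ± 0.26. In the other direction, the scavenging chemokine receptor Ackr3 (0, against 314 UMIs) and Dpysl3 (0, against 150) were at least 184-fold and 87.8-fold lower. B3galt1 (1, against 761) and Cd7 (1, against 544) were 1336-fold and 955-fold lower, with intervals from 239.1 and 170.7 upward. Ltb, low already against negative migratory cells, was lower by 4.64 on the log2 scale, at 19.9, 23.7 and 13.9 CPM, against 441, 609 and 596 CPM in Prdm16-positive cells. The autoimmune regulator Aire had 22.1, 11.2 and 13.9 CPM in positive migratory cells, against 274, 86.3 and 257 CPM in Prdm16-positive cells (-3.44 ± 0.28, adjusted p = 4.30e-09), and did not differ from negative cells past the threshold (0.44 ± 0.43, adjusted p = 0.58).

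Some genes high against negative migratory cells were also present in Prdm16-positive cells. Irf8 was lower in positive migratory cells here, at 212, 215 and 203 CPM, against 330, 441 and 350 CPM in Prdm16-positive cells (-0.60 ± 0.18, adjusted p = 0.0105). Mtss2 did not differ past the threshold (0.20 ± 0.37, adjusted p = 0.709), and Laptm4b was higher by less (0.98 ± 0.19, adjusted p = 0.000317), with 163, 154 and 188 CPM in Prdm16-positive cells. Zdhhc14 (2.17 ± 0.21), Bcl2l14 (4.22 ± 0.28), Cpne8 (2.74 ± 0.33) and Colq (3.73 ± 0.51) were higher in positive migratory cells in 3 of 3 hashtags in both comparisons, which share the positive libraries.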

How the data were processed

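Gene UMI counts per droplet were made by the authors with Cell Ranger 8.0.1 and build mm10, per the submitters' processing notes. The deposited matrix held 3247803 barcodes, and the deposited table of hashtag assignments held 27679 of them, with 16 further columns of per-cell values not used. Barcodes with 1 assigned hashtag (19239) were kept when they held at least 500 genes and at most 10% mitochondrial UMIs (15480). The 4815 barcodes the authors marked as holding several hashtags were left out, and no doublet caller was run.

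UMIs were summed per side and hashtag. edgeR 4.0.16 (TMM scaling, filterByExpr, quasi-likelihood test) was fitted across all genes with side and hashtag as terms, in R 4.3.3. The common dispersion was 0.014, and p-values were adjusted by Benjamini-Hochberg over all genes tested. Each hashtag is a biological replicate that holds cells of both sides, so the pairing comes from the design. Deviations of the 2 sides of a hashtag correlated by 0.0634, 0.016 and 0.0417. The test was checked on simulated data.

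Named genes follow a rule: the genes that chose the cells, reporter sequences, 18 genes listed by name, up to 3 called genes of each list that moved one way in 3 of 3 hashtags, and the 10 highest and 10 lowest with at least 60 UMIs, with 5 each against Prdm16-positive cells. Members, lists and alternatives were chosen with earlier results of these data known. Intervals cover counting error only. Alternatives were another scaling, DESeq2 1.42.0, no filter, no block, each hashtag left out, other thresholds, thinned cells and cells of like depth. Some genes are not reported here.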

Additional observations from a re-analysis of the deposited data

How the results depend on the processing

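Of the 73 named genes called between positive and negative cells, 992 of 1165 values under the alternatives kept direction and call, 171 lost the call and 2 changed sign. The count of 893 called genes became 366 with DESeq2 and 254 without cells holding other markers, where fewer cells and genes entered. Leaving out 1 hashtag each gave 325 to 902, with the lowest count without hashtag 2, where 315 of the 893 stayed called. All 893 kept their direction there, but the libraries left are part of those that gave the calls. The causes of the lower counts were not tested. All other settings gave 697 to 1052. Against Prdm16-positive cells, DESeq2 called 1310 genes in place of 2326, and leaving out 1 hashtag gave 1597 to 2551. Without the replicate block of hashtags the counts were 868 and 2286, and the calls of Itgav, Cd86, H2-K1 and Pcna were lost. Choosing sides after thinning lowered the positive share to 20.66%, 22.73% and 22.16%, since fewer UMIs remain per cell. Changes of sign were seen for Ccl17, not called in the main test (-1.293 with both genes detected), Tcf7 (0.08677 without cells holding other markers) and AW112010 (-0.02861 in cells of like depth). Tcf7 is itself among the markers by which that setting removed cells, as are Ighm and Adgre1, so its value there is shaped by the choice of cells. For Ccl17 and AW112010 the cause was not tested. Of the named genes not called, Ccl22, tdTomato, Tgfbr1, Tnfrsf11a and Zbtb46 also changed sign under some settings (to -0.3972, -0.7601, -0.03942, 0.0132 and 0.1171 at the farthest) and were not called there. The fit of hashtags 6, 8 and 9 and that of Prdm16-positive cells with the migratory threshold were not run, because fewer than 10 cells per hashtag remained. Depth limits genes under about 10 CPM, where a library of 452229 UMIs holds few counts.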
